A study of Ovis aries with 115 samples.

Results

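The cervix of Norwegian White Sheep (NWS) was compared with that of Suffolk ewes in the follicular phase after oestrus synchronisation. NWS is a Norwegian breed of high fertility after cervical insemination with frozen-thawed semen, and Suffolk is the Irish low fertility breed used as reference. The libraries were chosen by their labels alone (induced cycle, follicular phase, and Norwegian or Suffolk breed), which gave 10 NWS and 11 Suffolk ewes, or 21 of the 115 libraries of the series. One further library, a Suffolk one whose title and labels name different states, was left out. Each library came from 1 adult ewe that had lambed before. Both breeds had received the same treatment, an intravaginal progestagen (flugestone acetate) sponge followed by equine chorionic gonadotropin at its removal. Tissue was taken from the middle of the cervix, avoiding the folds, and mRNA was sequenced without sorting of cells. The breeds were sampled in different countries, and country and breed cannot be told apart here.

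The cervix is a tube of connective tissue and smooth muscle lined by a folded, mucus-secreting epithelium. Around oestrus its wall softens and its epithelium releases a watery mucus, through which sperm must pass to reach the uterus. Leucocytes enter the wall and lumen at the same time. Bulk RNA mixes all these cells, so for every gene below, fewer cells of a type and less RNA per cell cannot be told apart.

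Counts assigned to genes summed to 14461289 to 19072737 per ewe in NWS and 15177320 to 31261671 in Suffolk, and mean totals did not differ beyond the spread of the ewes (permutation test, two-sided, p = 0.4998). On the first principal component, which held 29.5% of the variance, the breeds separated. NWS replicate 9 stood apart from the other NWS ewes on the second component (14.9% of the variance). This ewe had the lowest summed level of the epithelial, keratinised, plasma cell, neutrophil and endothelial markers among the NWS ewes, and the highest level of the markers of reproductive tract identity. Leaving it out changed the number of differentially expressed genes (DEGs) from 2774 to 2738.

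Genes were tested with edgeR's quasi-likelihood test on the raw counts, and DEGs are those with a Benjamini-Hochberg adjusted p below 0.05 that also differed more than 1.5-fold. Levels are given as CPM, counts scaled to the TMM-normalised library size, log2 fold changes above 0 stand for higher expression in NWS, and SE is their standard error. Of the 14811 genes tested, 2774 were DEGs (18.7%), with 1413 higher in NWS (9.54% of genes tested) and 1361 lower (9.19%). The genes higher in NWS reached further. Of these, 606 differed more than 2-fold and 161 more than 4-fold, against 439 and 45 of those lower in NWS. A complete separation of the ewes was less common than a DEG. In 369 genes (2.49%) every NWS ewe lay above every Suffolk ewe, and in 154 (1.04%) every NWS ewe lay below. With plain library totals in place of TMM-normalised ones, these numbers were 364 and 95.

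Most of these genes could be described by identifier only. Names were at hand for 1352 of 27054 identifiers, and 1319 of these stand in a list of genes higher in Suffolk than in Fur, which the study drew from the same Suffolk ewes. Of the 1305 tested genes with a name from that list, 726 were lower in NWS (55.6%) and 1 was higher (0.0766%), with a median log2 fold change of -0.67 (-0.02 over all genes tested). Among the 13473 tested identifiers without a name the picture was the opposite, with 1401 higher in NWS (10.4%) and 631 lower (4.68%). The counts for gene lists below therefore stand on genes already chosen for high expression in Suffolk. They are not independent evidence of a direction and are to be read against the 55.6%.

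Of the genes with a name only 12 were higher in NWS, among them muscle proteins and calmodulin-related genes. ACTG2 (ENSOARG00000012108), the smooth muscle gamma actin, was expressed from 811 to 3996 CPM (median 2386) in NWS and from 10.01 to 260.1 CPM (median 115) in Suffolk. DES (ENSOARG00000020185), which encodes the intermediate filament desmin of muscle cells, was expressed from 1549 to 4626 CPM (median 3371) in NWS and from 16.3 to 423 CPM (median 187) in Suffolk. For both genes the lowest NWS ewe lay well above the highest Suffolk ewe, and the quasi-likelihood test of edgeR gave a log2 fold change of 4.21 (adjusted p = 7.26e-07) for ACTG2 and 4.17 (adjusted p = 1.39e-06) for DES. POPDC2 (ENSOARG00000019786), a membrane protein of striated and smooth muscle, ran from 2.43 to 10.46 CPM (median 7.55) in NWS against 0 to 0.71 CPM (median 0.251) in Suffolk. ASB2 (ENSOARG00000014168), the substrate-binding part of a ubiquitin ligase that acts on filamins in muscle, ran from 9.37 to 38.5 CPM (median 28.8) in NWS against 0.501 to 5.46 CPM (median 2.01) in Suffolk (log2 fold change 3.61 ± 0.33 SE, adjusted p = 9.24e-08). Neither gene overlapped between the breeds. The cardiac alpha actin gene ACTC1 was also higher in NWS, by 5.10 ± 0.65 SE on the log2 scale (adjusted p = 4.69e-06).

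PCP4 (ENSOARG00000009912), a small calmodulin-binding protein, was expressed from 5.5 to 60.1 CPM (median 32.8) in NWS, while no Suffolk ewe exceeded 0.943 CPM. PNCK (ENSOARG00000007294), a calmodulin-dependent protein kinase, was the DEG of smallest p (log2 fold change 7.07 ± 0.44 SE, adjusted p = 2.52e-09). It had between 47 and 188 counts in the NWS ewes and at most 3 in any Suffolk ewe, so NWS expression was at least 36.7-fold higher when 3 counts per library are taken as the limit of detection. It was the only identifier of all 27054 with more than 3 counts in every NWS ewe and at most 3 in every Suffolk ewe. None showed the opposite pattern. PNCK was not below this limit in Suffolk throughout. It exceeded 3 counts in 3 of 8 Suffolk ewes of the natural follicular phase (at most 55) and in 7 of 10 of the luteal phase (at most 14). PI16 (ENSOARG00000014123), a peptidase inhibitor known from fibroblasts of vessel walls, ran from 2.69 to 38.1 CPM (median 15.9) in NWS and from 0.514 to 3.3 CPM (median 0.762) in Suffolk. Here the lowest NWS ewe fell within the Suffolk range (log2 fold change 3.96 ± 0.44 SE, adjusted p = 9.36e-07). The other named genes higher in NWS were BRINP3 (log2 fold change 3.01), CLGN (2.38), a chaperone of the endoplasmic reticulum, HHLA2 (0.59), a ligand of the B7 family, and A2M.

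**Figure D1:**
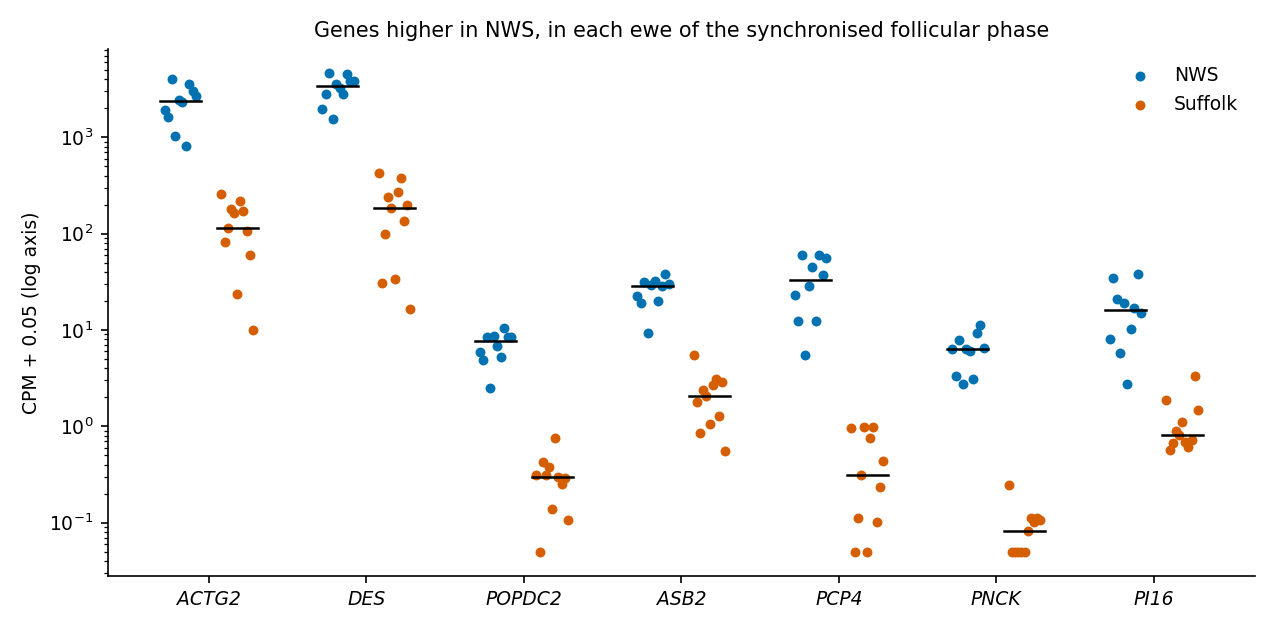
Expression of ACTG2, DES, POPDC2, ASB2, PCP4, PNCK and PI16 in each ewe of the synchronised follicular phase, as CPM plus 0.05 on a log axis. Each point is 1 ewe (10 NWS in blue, 11 Suffolk in orange) and black lines are medians, and the breeds do not overlap for any gene but PI16.

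The muscle list was split. Of its 10 tested members, 5 were higher in NWS (ACTG2, DES, ACTC1, POPDC2 and ASB2) and 5 were lower. Those lower included PPP1R12B (log2 fold change -0.72), a regulatory subunit of myosin phosphatase, the calcium-binding protein HRC (-0.87), the tropomyosin TPM3 (-0.68) and the kinase MYLK3 (-0.92). All 5 lower members had their name from the list of genes higher in Suffolk than in Fur and all 5 higher members from elsewhere, so the list median of 1.46 lies between separate sets of values. Of the 18 tested calcium and calmodulin genes, 2 were higher in NWS (PNCK and PCP4), 9 were lower and 7 were not DEGs. Of these 18, 16 had their name from the list of genes higher in Suffolk than in Fur. Only 17 of the 21 symbols listed had an identifier here. S100B and S100A10, which the study gives as lower in Suffolk than in NWS, had none and could not be read. ORAI2, a pore subunit of the store-operated calcium channel, was lowered with no overlap, from 6.15 to 17.8 CPM (median 11.3) in NWS and from 20.3 to 38.1 CPM (median 24.7) in Suffolk (log2 fold change -1.12 ± 0.15 SE, adjusted p = 7.59e-06).

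The level of the muscle genes differed between single ewes of the Irish breeds, and is given beside that of the genes higher in NWS. For each ewe of the series, the median log2 difference over the 1413 genes higher in NWS was taken from the mean of the 11 Suffolk ewes (pseudocount 0.5 CPM), beside the summed CPM of ACTG2 and DES. By construction this median was near 0 in the Suffolk ewes (-0.19 to 0.19) and high in the NWS ewes (0.61 to 1.02), whose muscle sums ran from 26.3 to 683 and from 2568 to 8623 CPM. Of the 10 Belclare ewes of the same state, 9 lay between -0.27 and 0.13 with muscle sums of 73.3 to 729.5 CPM. Belclare replicate 2 had 12900.3 CPM of ACTG2 and DES, above every NWS ewe of this state, and its median over the 1413 genes was 1.10. In this ewe 74.5% of the 1413 genes were nearer to the NWS than to the Suffolk median on the log2 scale, against 5.5% to 23.2% in the other Belclare ewes.

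At the natural follicular phase the Suffolk ewes were themselves divided. Replicates 6, 7 and 8 had muscle sums of 3275, 5989.9 and 1717 CPM and medians over the same genes of 0.61, 0.87 and 0.41. The other 5 Suffolk ewes had 63.7 to 811.9 CPM and medians of -0.14 to 0.12. These values did not rise in step in all ewes. Belclare replicates 2 and 4 of that phase had muscle sums of 6285 and 3315 CPM with medians of 0.41 and 0.36, near that of Suffolk replicate 8. Both Belclare ewes lay within the range of the NWS ewes of that phase (1236 to 22444 CPM, medians of 0.25 to 1.61). Suffolk replicate 10 of the luteal phase had 0.51 at 641 CPM. NWS replicate 5 of the natural follicular phase held the highest sum of the series, 22444 CPM, with a median of 1.61. Over the genes lower in NWS the median was -0.86 in Belclare replicate 2 and -0.48, -0.69 and -0.36 in Suffolk replicates 6, 7 and 8, but it was also -0.37 in Suffolk replicate 4, which had the lowest muscle sum of its group. These are levels of whole tissue pieces, and the part of muscle content in the breed difference was not tested. The markers MYH11, CNN1, TAGLN and MYLK could not be read, because their identifiers carried no name here.

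**Figure D2:**
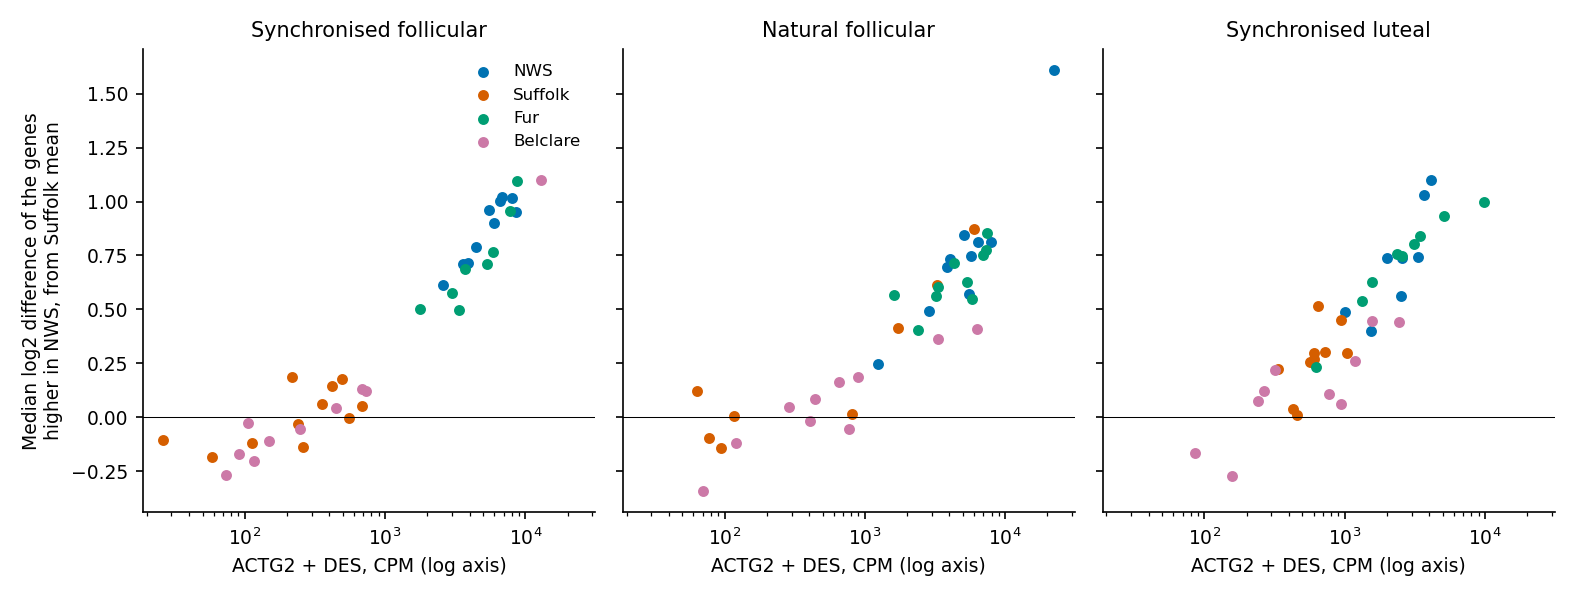
Each point is 1 ewe. The x axis gives the summed CPM of ACTG2 and DES (log axis) and the y axis the median log2 difference of the 1413 genes higher in NWS from the mean of the 11 synchronised follicular Suffolk ewes, in 3 panels for the 3 states and coloured by breed. Belclare replicate 2 in the first panel lies above every NWS ewe on both axes. Suffolk replicates 6, 7 and 8 and Belclare replicates 2 and 4 in the second lie within the NWS range on both axes.

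Among the identifiers without a name, the 5 of smallest p higher in NWS all separated the breeds completely. ENSOARG00000006055 was expressed from 29.8 to 129.7 CPM (median 81.6) in NWS and from 6.98 to 17.6 CPM (median 9.9) in Suffolk (log2 fold change 3.01 ± 0.20 SE, adjusted p = 6.34e-09). ENSOARG00000006838 ran from 78.5 to 232 CPM (median 137) in NWS and from 13.4 to 33.1 CPM (median 24.4) in Suffolk (log2 fold change 2.597 ± 0.19 SE, adjusted p = 9.13e-09). In both, the highest Suffolk ewe lay below the lowest NWS ewe. The abundant ENSOARG00000017589 ran from 460.5 to 876 CPM (median 629) in NWS and from 147 to 263 CPM (median 184) in Suffolk (log2 fold change 1.74 ± 0.12 SE, adjusted p = 7.66e-09). ENSOARG00000008576 and ENSOARG00000015680 had log2 fold changes of 1.498 (adjusted p = 7.66e-09) and 1.22 (adjusted p = 7.66e-09). All 5 were also positive in other ewes of these breeds at the natural follicular and synchronised luteal phases, with log2 fold changes between 0.53 and 1.73 at the natural follicular phase and between 0.59 and 2.15 at the luteal phase.

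The 5 unnamed identifiers of smallest p lower in NWS were as follows. ENSOARG00000002285 ran from 37.9 to 66.0 CPM (median 49.2) in NWS and from 79.0 to 109 CPM (median 91.0) in Suffolk (log2 fold change -0.89 ± 0.08 SE, adjusted p = 1.71e-07), and ENSOARG00000010109 ran from 23.5 to 31.8 CPM (median 28.1) and from 37.9 to 51.2 CPM (median 43.9). Neither overlapped between the breeds. ENSOARG00000015492 had a log2 fold change of -0.68 (adjusted p = 3.66e-06), and its highest NWS ewe (24.4 CPM) passed the lowest Suffolk ewe (24.3 CPM). ENSOARG00000002601 had -1.55, from a Suffolk median of 3.05 to an NWS median of 1.02 CPM. ENSOARG00000017712 had the largest difference of the 5, -2.41 (adjusted p = 4.36e-06) by edgeR's quasi-likelihood test, at low levels of 0.0563 to 0.475 CPM (median 0.18) in NWS and 0.501 to 2.07 CPM (median 1.23) in Suffolk. It and ENSOARG00000002601 did not overlap.

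Epithelial genes were lower in NWS across junctions, mucus and transport. Of the 38 tested junction and keratin genes 33 were lower in NWS and none higher, with a median log2 fold change of -0.82, against 55.6% lower and a median of -0.67 in the named pool. NECTIN2 (ENSOARG00000009370), an adhesion molecule of cell-cell junctions, was expressed from 77.3 to 116 CPM (median 87.0) in NWS and from 122 to 169 CPM (median 149) in Suffolk (log2 fold change -0.72 ± 0.07 SE, adjusted p = 4.1e-07). CLDN4 (ENSOARG00000025184), a tight junction claudin, ran from 12.99 to 26.9 CPM (median 19.7) in NWS and from 31.5 to 51.6 CPM (median 36.7) in Suffolk (log2 fold change -1.002 ± 0.13 SE, adjusted p = 3.67e-06). Both genes separated the breeds without overlap. CLDN7 (ENSOARG00000011311), another claudin, differed by a log2 fold change of -0.95 (adjusted p = 4.95e-06), and only NWS replicate 4, at 160 CPM, reached the Suffolk range (lowest ewe 136 CPM). The 5 members that were not DEGs were CLDN12, PARD6B, CLDN10, KRT1 and EPPK1. Only 37 of the 41 symbols listed had an identifier here, and EPCAM, ESRP1, KRT8 and KRT18 could not be read.

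Of the 25 tested genes for mucins, mucin glycosylation and secreted products, 17 were lower in NWS, none was higher and 8 were not DEGs (median -1.08, the lowest of all lists). MUC16 (ENSOARG00000013067), a membrane-bound mucin, was expressed from 350.2 to 976 CPM (median 735) in NWS and from 1141 to 2927 CPM (median 1669.7) in Suffolk (log2 fold change -1.32 ± 0.20 SE, adjusted p = 2.84e-05). SCGB2A1 (ENSOARG00000014805), a secretoglobin, ran from 0.113 to 3.22 CPM (median 1.42) in NWS and from 2.35 to 25.3 CPM (median 8.8) in Suffolk. GOLM1 (ENSOARG00000008790), a protein of the Golgi membrane, had a log2 fold change of -0.59 (adjusted p = 0.00012) just past the fold threshold, which it missed in 13 of 21 fits without 1 ewe. MUC5B ran from 0.723 to 91.4 CPM (median 70.1) in NWS and from 28.8 to 417 CPM (median 108) in Suffolk with a log2 fold change of -1.05 (adjusted p = 0.0855), and was no DEG, but became one with all 4 breeds in one fit (adjusted p = 0.04). MUC5AC had a log2 fold change of -2.49 (adjusted p = 0.0381), which was -0.41 (adjusted p = 0.614) without Suffolk replicate 2, whose 688 CPM was far above all other ewes of both breeds. It also lost its call in 7 fits that each left out 1 NWS ewe, with adjusted p between 0.0556 and 0.0623.

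Ion and water transport genes were lower in 18 of 24 tested members, with none higher (median -0.96). CLCN4 (ENSOARG00000010254) and CLCN3 (ENSOARG00000015494) encode chloride-proton exchangers of endosomes. CLCN4 ran from 8.27 to 14.6 CPM (median 9.93) in NWS and from 19.1 to 30.9 CPM (median 22.6) in Suffolk (log2 fold change -1.09 ± 0.11 SE, adjusted p = 3.18e-07), and CLCN3 had a log2 fold change of -0.77 (adjusted p = 5.11e-07). CLCN4 did not overlap between breeds, while CLCN3 did in 1 ewe of each. The list also held the chloride channel CFTR (-1.04), the sodium channel subunits SCNN1A (-1.09) and SCNN1B (-1.20) and the water channel AQP5 (-1.16), all lower in NWS.

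**Figure D3:**
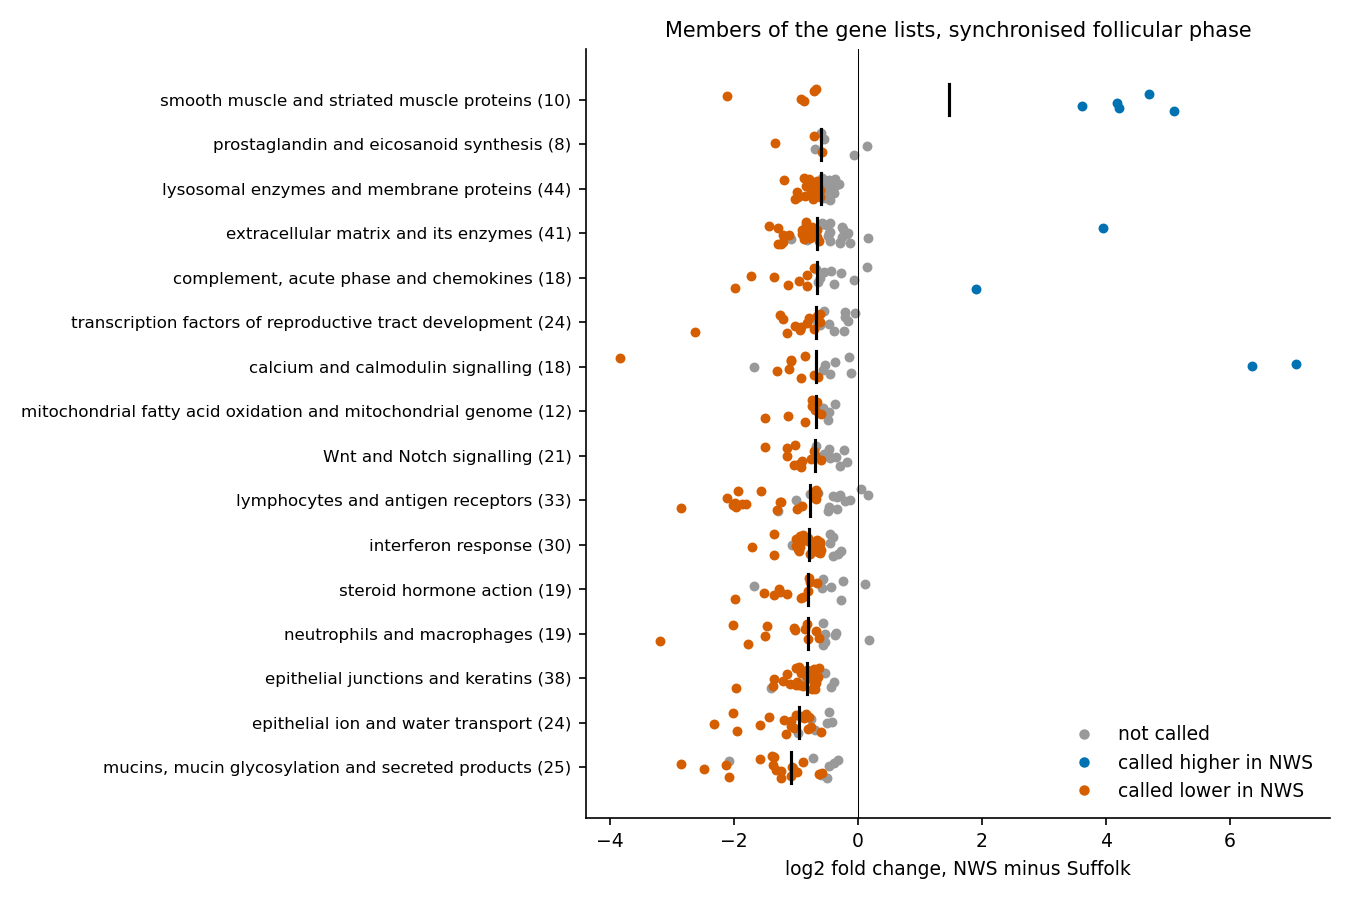
Log2 fold change of NWS against Suffolk for each tested member of 16 gene lists, with the number of tested members in brackets. Points are genes (blue called higher in NWS, orange called lower, grey not called) and black bars are list medians, and 15 of the lists have a median between -1.08 and -0.59 while nearly all named genes come from a list higher in Suffolk than in Fur.

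Lymphocyte, neutrophil and macrophage genes were lower in NWS in shares near that of the named pool. Of 33 tested lymphocyte and antigen receptor genes 19 were lower, none was higher and 14 were not DEGs (median -0.77). JAK3 (ENSOARG00000014631), the kinase of common gamma chain cytokine receptors, was expressed from 11.6 to 40.3 CPM (median 18.6) in NWS and from 26.9 to 167 CPM (median 95.6) in Suffolk (log2 fold change -2.11 ± 0.30 SE, adjusted p = 1.75e-05). The costimulatory ligand ICOSLG had a log2 fold change of -0.90 (adjusted p = 0.000127) and the lymphoid transcription factor IKZF3 one of -1.25 (adjusted p = 0.000569). JAK3 overlapped in NWS replicate 1, at 40.3 CPM, and the other NWS ewes lay at or below 26.2 CPM. The tested identifiers of the immunoglobulin heavy chain IGHG3 had log2 fold changes of -1.81 and -1.87, which were -0.42 and -0.41 without Suffolk replicate 2 (adjusted p = 0.486 and 0.458). They lost their call in 11 and 10 of the 21 fits without 1 ewe. Only uniquely mapped read pairs were counted, so reads shared by such near-identical genes may be missing from these counts.

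Of the 19 tested neutrophil and macrophage genes, 12 were lower in NWS and 7 were not DEGs (median -0.82). The median of this list was -0.02 with no DEG at the natural follicular phase, and -0.42 with 2 DEGs lower in NWS at the luteal phase. LCP1 (ENSOARG00000007864), an actin-bundling protein of leucocytes, ran from 12.8 to 33.3 CPM (median 27.3) in NWS and from 31.7 to 72.7 CPM (median 50.3) in Suffolk (log2 fold change -1.02 ± 0.17 SE, adjusted p = 0.000106), and the Src-family kinase LYN had a log2 fold change of -0.86 (adjusted p = 0.000139). UNC93B1, which carries Toll-like receptors to endosomes, separated the breeds completely but stayed below the fold threshold (-0.57, adjusted p = 6.36e-05). PADI4, the arginine deiminase of neutrophils, ran from 7.35 to 85.8 CPM (median 41.4) in NWS and from 51.8 to 271 CPM (median 134) in Suffolk (log2 fold change -1.47 ± 0.42 SE, adjusted p = 0.00746). In PADI4 5 of the 10 NWS ewes lay below the lowest Suffolk ewe, and LCP1 overlapped in 1 ewe of each breed.

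Of 30 tested interferon response genes 23 were lower in NWS and 7 were not DEGs (median -0.79). TRIM25 (ENSOARG00000007011), a ubiquitin ligase of the viral RNA sensing pathway, was expressed from 22.9 to 36.2 CPM (median 27.9) in NWS and from 42.5 to 73.1 CPM (median 54.8) in Suffolk (log2 fold change -0.94 ± 0.10 SE, adjusted p = 5.11e-07). TRANK1 ran from 133 to 277 CPM (median 179) in NWS and from 281 to 567.6 CPM (median 344) in Suffolk, and the transcription factor IRF2 had a log2 fold change of -0.60 (adjusted p = 0.000108), which missed the fold threshold in 10 of 21 fits without 1 ewe. TRIM25 and TRANK1 did not overlap. At the natural follicular phase the median of this list was 0.04 and none of its members was a DEG, and at the luteal phase it was -0.29 with 1 DEG. Complement, acute phase and chemokine genes were lower in 8 of 18, higher in 1 and not DEGs in 9. Of these 18, 17 had their name from the list of genes higher in Suffolk than in Fur. Only 18 of the 26 symbols listed had an identifier here. C7, CCL2, CCL11, CCL21, IL17B, IL18, IL33 and IL34, which the study gives as lower in Suffolk than in NWS, had none and could not be read. HMOX1, which breaks down haem, had -0.70 (adjusted p = 6.84e-05), the complement factor H-related gene CFHR3 -1.36 (adjusted p = 0.00097) and the chemokine CXCL16 -0.55 (adjusted p = 0.000693), below the fold threshold. The member higher in NWS was A2M (log2 fold change 1.90), the protease inhibitor alpha-2-macroglobulin.

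Matrix genes were lower in 19 of 41 tested members, which is below the 55.6% of the named pool, higher in 1 and not DEGs in 21 (median -0.66). Of the 41, 39 had their name from the list of genes higher in Suffolk than in Fur. Only 39 of the 43 symbols listed had an identifier here. COL4A5, COL4A6, COL6A3 and MMP3, which the study names as increased in Fur and NWS, had none and could not be read. The study also reports extracellular matrix organisation as higher in NWS. MMP15 (ENSOARG00000001159), a membrane-bound metalloproteinase, was expressed from 31.8 to 54.95 CPM (median 35.6) in NWS and from 56.2 to 80.0 CPM (median 72.3) in Suffolk (log2 fold change -0.90 ± 0.09 SE, adjusted p = 4.51e-07). ADAMTS7 (ENSOARG00000000333), a secreted metalloproteinase, ran from 21.9 to 68.3 CPM (median 30.8) in NWS and from 53.2 to 130.0 CPM (median 72.1) in Suffolk. MMP15 did not overlap, and ADAMTS7 did only in NWS replicate 9. The gelatinase MMP2 was also lower, with a log2 fold change of -0.67 (adjusted p = 0.00264). The single member higher in NWS was PI16.

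Lysosomal genes were lower in 22 of 44 tested members, again a smaller share than in the pool, with none higher and a median of -0.60. GRN (progranulin) had the smallest p (-0.99, adjusted p = 9.32e-08). LAMP1 (ENSOARG00000008215), a main protein of the lysosomal membrane, ran from 208 to 304 CPM (median 231) in NWS and from 349.6 to 468 CPM (median 386) in Suffolk (log2 fold change -0.74 ± 0.08 SE, adjusted p = 3.99e-07). SGSH, which degrades heparan sulfate, ran from 31.7 to 74.2 CPM (median 41.1) in NWS and from 81.3 to 136 CPM (median 98.9) in Suffolk (log2 fold change -1.19 ± 0.12 SE, adjusted p = 4.42e-07). Neither LAMP1 nor SGSH overlapped between the breeds.

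Of the 19 tested genes of steroid hormone action, 12 were lower and 7 were not DEGs (median -0.81). Of these 19, 18 had their name from the list of genes higher in Suffolk than in Fur. Only 19 of the 21 symbols listed had an identifier here, and the receptors ESR1 and PGR could not be read. PGRMC1, a progesterone receptor membrane component, ran from 33.6 to 54.0 CPM (median 40.9) in NWS and from 53.0 to 73.1 CPM (median 61.0) in Suffolk, a log2 fold change of -0.57 (adjusted p = 1.19e-05) that stayed below the fold threshold. KLF9, a transcription factor that interacts with the progesterone receptor, had -0.81 (adjusted p = 0.000271) and the orphan receptor ESRRG -0.93 (adjusted p = 0.000354). The oxytocin receptor OXTR ran from 0.649 to 62.1 CPM (median 3.42) in NWS and from 2.53 to 128 CPM (median 19.7) in Suffolk, with a log2 fold change of -1.68 (adjusted p = 0.0721). The NWS maximum was replicate 9, and the next NWS ewe had 5.55 CPM. Without replicate 9 the log2 fold change was -3.17 (adjusted p = 0.000306), which made OXTR a DEG. At the other end of the 21 fits without 1 ewe it was -1.09, and the adjusted p reached 0.204 in edgeR's quasi-likelihood test. The prostaglandin list gave 3 lower and 5 not DEGs of 8, with -0.55 (adjusted p = 0.00297) for the phospholipase PLA2G6, below the fold threshold, -1.35 (adjusted p = 0.0245) for the phospholipase PLA2G4F and -0.72 (adjusted p = 0.0308) for the cyclooxygenase PTGS1. The adjusted p of PLA2G4F was 0.0752 without Suffolk replicate 8, and that of PTGS1 was between 0.0504 and 0.0658 in the 7 leave-one-out fits in which it was no DEG.

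Wnt and Notch genes were lower in 12 of 21 and not DEGs in 9 (median -0.70). The Wnt inhibitor APCDD1 (ENSOARG00000001340) ran from 44.2 to 78.4 CPM (median 67.9) in NWS and from 96.6 to 171 CPM (median 116) in Suffolk (log2 fold change -0.92 ± 0.12 SE, adjusted p = 4.17e-06). The receptor NOTCH1 had -0.77 (adjusted p = 1.6e-05) and its ligand DLL4 -1.03 (adjusted p = 2.55e-05). APCDD1 alone of these 3 did not overlap. Of 24 transcription factors of reproductive tract development, 14 were lower and 10 were not DEGs (median -0.67, as in the pool). FOXC1, a forkhead factor of mesenchyme, had a log2 fold change of -2.63, and SOX17, a factor of endothelium, one of -0.66 (adjusted p = 1.48e-05). Neither overlapped between the breeds. Of 12 genes of fatty acid oxidation and the mitochondrial genome, 8 were lower and 4 were not DEGs (median -0.68). CPT1A, which moves fatty acids into mitochondria, ran from 18.3 to 108 CPM (median 40.3) in NWS and from 84.1 to 212 CPM (median 133) in Suffolk (log2 fold change -1.51 ± 0.22 SE, adjusted p = 2.41e-05). Only NWS replicate 2 reached the Suffolk range. COX-1, a cytochrome oxidase subunit, and GPD2, a mitochondrial glycerol phosphate dehydrogenase, stayed below the fold threshold, at -0.49 and -0.47. Across all named genes, the smallest p lower in NWS were those of GRN, ZNF341, ERGIC1, CLCN4 and EAF1. EAF1, a cofactor of transcription elongation, ran from 20.5 to 27.4 CPM (median 22.6) in NWS and from 32.6 to 46.8 CPM (median 38.2) in Suffolk without overlap (log2 fold change -0.75 ± 0.08 SE, adjusted p = 3.78e-07). ZNF341, a zinc finger transcription factor, had a log2 fold change of -0.71, and ERGIC1, a cargo receptor between endoplasmic reticulum and Golgi, had -0.72. By size the lower named genes included the cation channel TRPM1 (-3.84), the neutrophil surface protein CD177 (-3.20) and the cytokine receptor FLT3 (-2.86). In the natural follicular ewes TRPM1 and CD177 had the opposite sign (0.21 and 1.49) and FLT3 the same (-2.35), and none was a DEG.

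Markers of the cell types that the tissue could hold are given next, and apart from smooth muscle nearly all of them had their name from the list higher in Suffolk than in Fur, so their counts too are to be read against the 55.6% of that pool. The smooth muscle sum (ACTG2 and DES) was higher in every NWS ewe. Of the 10 listed markers of surface and glandular epithelium, 8 had an identifier here, and EPCAM and KRT8 could not be read. All 8 had their name from the list of genes higher in Suffolk than in Fur. They summed to between 824 and 2078 CPM in NWS (median 1548) and between 2234 and 4269 CPM in Suffolk (median 2996). All 8 were lower in NWS as DEGs. The 4 endothelial markers summed to between 384 and 767 CPM in NWS and between 780.3 and 1213 CPM in Suffolk, with 3 lower as DEGs. Neither sum overlapped. VWF, the von Willebrand factor of endothelium, ran from 293 to 677 CPM (median 451) in NWS and from 659.9 to 1095 CPM (median 733) in Suffolk (log2 fold change -0.78 ± 0.13 SE, adjusted p = 7.31e-05). The fibroblast sum overlapped, at 1417 to 2662 CPM in NWS and 1653 to 5399.8 CPM in Suffolk, and its 6 markers were divided into 1 higher (PI16), 3 lower (PDGFRB, MMP2 and PDPN) and 2 not DEGs (FAP and FBLN1).

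Among leucocytes the marker sums overlapped. The neutrophil sum ran from 8.68 to 97.7 CPM in NWS (median 49.3) and from 68.3 to 295.7 CPM in Suffolk (median 159), the macrophage sum from 11.4 to 68.5 and from 16.2 to 99.3 CPM, and the lymphocyte sum from 8.04 to 27.3 and from 18.4 to 91.1 CPM. The plasma cell sum reached 54231 CPM in Suffolk replicate 2, against a Suffolk median of 2534 CPM and NWS values of 884 to 8695 CPM. Of 3 mucous secretory markers 2 were lower as DEGs, of 3 keratinised markers 2, of 5 lymphocyte markers 3, of 6 plasma cell identifiers 4, of 4 neutrophil markers 3 and of 3 macrophage markers 2, with none higher as a DEG. The neutrophil marker that was no DEG was CXCR2 (ENSOARG00000019492, log2 fold change 0.17, adjusted p = 0.789 in edgeR). The listed lymphocyte marker CD79B and macrophage marker CD14 had no identifier here and could not be read. Without Suffolk replicate 2 the lymphocyte markers IKZF1 (-0.70, adjusted p = 0.0617 in edgeR) and PTPRCAP (-0.52) and the plasma cell markers TNFRSF13B (-0.48) and IGHG3 were no longer DEGs. GPNMB lost its call without Suffolk replicate 10 (adjusted p = 0.0507) or 11, MMP2 without Suffolk replicate 3 (-0.57) and SPINT2 without NWS replicate 9 (-0.57), and ROBO4 and PAX8, close to the fold threshold, each did so in 9 of 21 fits without 1 ewe. No defining marker of these types was at 0 in a whole breed. Markers of reproductive tract identity, read without ESR1 and PGR, were present in all ewes. Their sums were 86.1 to 219 CPM in NWS and 156 to 307 CPM in Suffolk, and PAX2, PAX8 and HOXB8 were lower in NWS as DEGs. The part of these markers in the lists above was not tested.

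**Figure D4:**
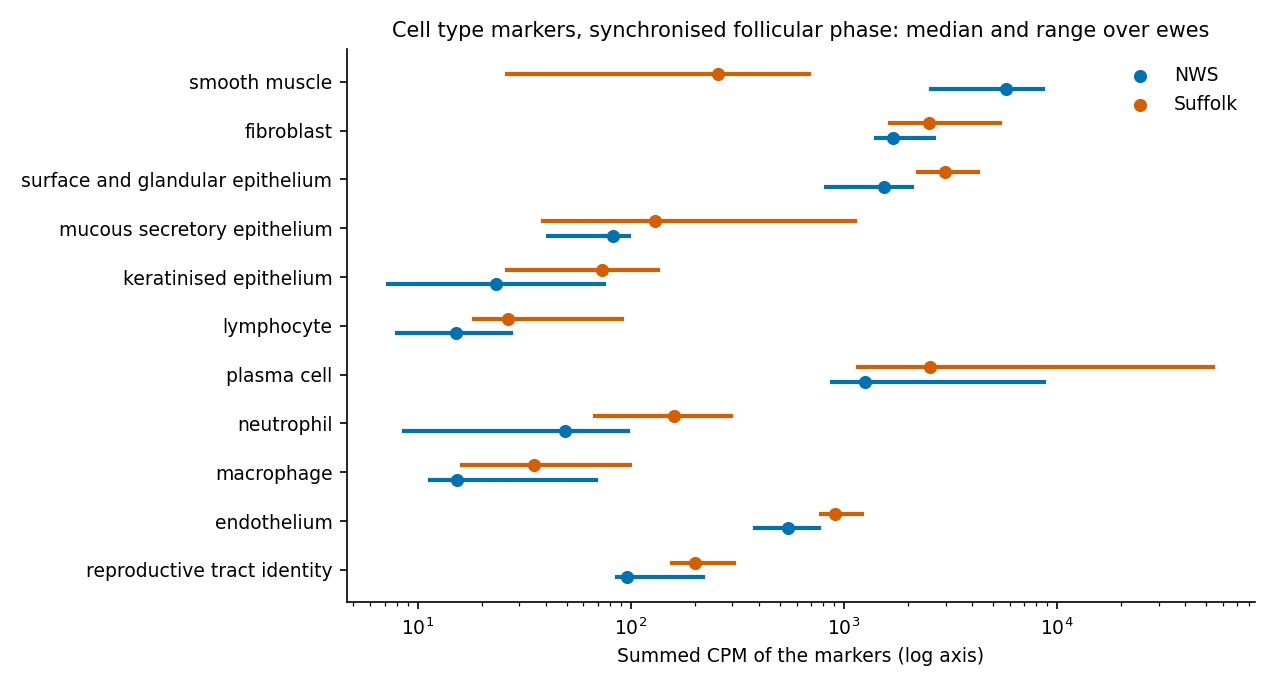
Summed CPM of the cell type markers that had an identifier here, in the synchronised follicular phase (log axis), with 1 row per cell type. Dots are medians and lines run from the lowest to the highest ewe, for 10 NWS ewes (blue) and 11 Suffolk ewes (orange), and the breeds do not overlap for smooth muscle, surface and glandular epithelium, and endothelium.

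The same breeds were compared in other ewes at the natural follicular phase (10 NWS, 8 Suffolk) and at the synchronised luteal phase (8 NWS, 10 Suffolk). At the natural follicular phase 147 of the same 14811 genes were DEGs (0.993%), with 79 higher (0.533%) and 68 lower in NWS (0.459%), and at the luteal phase 645 (4.35%), with 430 higher (2.9%) and 215 lower (1.45%). The median SE over all genes was 0.142 in the synchronised follicular, 0.218 in the natural follicular and 0.165 in the luteal comparison. The natural follicular count rested on single ewes. It was 899 without Suffolk replicate 6, 439 without replicate 7, 13 without replicate 8, and 3 without replicate 3 or replicate 9. It was within 1.5 times of 147 in only 1 of the 18 fits that each left out 1 ewe. At the luteal phase the count ran from 430 to 845 over such fits.

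Direction was shared more widely than DEG calls. Of the 2774 DEGs of the synchronised follicular phase, 88.6% had the same sign at the natural follicular phase and 89.5% at the luteal phase, against 65.5% and 71.3% of the genes that were not DEGs. The differences were smaller there. The median log2 fold change of the 1413 genes higher in NWS was 0.92 at the synchronised follicular phase, 0.56 at the natural follicular and 0.46 at the luteal phase. That of the 1361 genes lower in NWS was -0.83, -0.40 and -0.34. The first value of each was used to choose the genes, which favours large values. Of the 2774, 91 (3.28%) were DEGs of the same direction at the natural follicular phase and none was a DEG of the opposite direction. At the luteal phase 444 were DEGs of the same direction and 2 of the opposite. Of the genes higher in NWS 336 (23.8%) were DEGs again at the luteal phase, and of those lower 108 (7.94%).

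**Figure D5:**
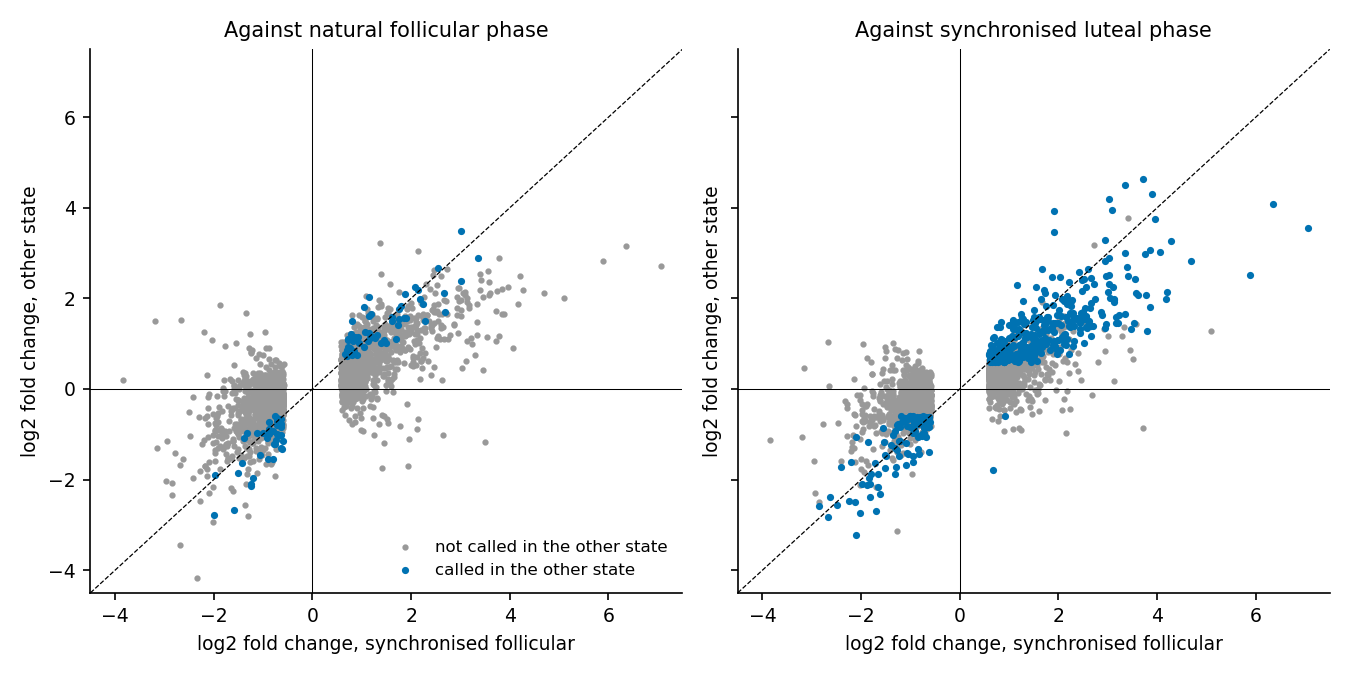
Log2 fold changes of NWS against Suffolk for the 2774 DEGs of the synchronised follicular phase (x axis) against those of other ewes (y axis) at the natural follicular (left) and synchronised luteal phase (right). Blue points were also DEGs in the other state and the dashed line marks equal values, and most points keep their sign and lie nearer to 0 in the other state.

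The muscle and calmodulin-related genes higher in NWS, and PI16, kept their direction in both other states with smaller log2 fold changes. At the luteal phase ACTG2 was a DEG (2.15, adjusted p = 7.82e-05), as were DES (1.99, adjusted p = 0.000366), POPDC2 (2.83, adjusted p = 0.00202), ASB2 (2.09, adjusted p = 0.000739), PCP4 (4.08, adjusted p = 0.000616), PNCK (3.55, adjusted p = 0.000466) and PI16 (3.74, adjusted p = 0.000834). ACTC1 was no DEG there (1.29, adjusted p = 0.244). At the natural follicular phase none of these genes was, and the log2 fold changes of the 7 genes other than ACTC1 lay between 1.89 for DES and 3.15 for PCP4. The natural follicular Suffolk ewes ranged from 28.6 to 4126 CPM (median 191) of DES, and the NWS ewes from 914 to 13062 CPM (median 2927). The breeds thus overlapped there, which they did not in the synchronised follicular ewes.

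Genes that were DEGs of one direction in all 3 states numbered 26, or 0.937% of the DEGs of the synchronised follicular phase. At the natural follicular phase their adjusted p lay between 0.0381 and 0.0477 in edgeR's quasi-likelihood test. The DEG count of that phase fell to 3 without Suffolk replicate 3, so at most 3 of the 26 kept their call there. Of the 26, 24 were higher in NWS, and none of these 24 had a name. The abundant ENSOARG00000008576 was among them, with log2 fold changes of 1.498, 1.02 and 0.86. Others named here after their values were seen were ENSOARG00000001497, with 1.26, 1.12 and 1.56, and ENSOARG00000013216, with 3.36, 2.88 and 4.49. Both genes lower in NWS in all 3 states had names. They were ST14 (log2 fold changes -0.999, -0.97 and -0.61), which encodes the epithelial serine protease matriptase, and SEMA4D (-1.07, -1.46 and -0.82), a semaphorin of lymphocytes and other cells.

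Whether the breed difference itself differed between states was tested with an interaction term. Between synchronised and natural cycles it passed for 1 gene (0.00675% of genes tested), and 2181 genes had an unadjusted p under 0.05. This gene, ENSOARG00000013745, was expressed from 39.5 to 285 CPM (median 136) in synchronised NWS ewes and from 26.6 to 103 CPM (median 45.3) in synchronised Suffolk ewes, while at the natural follicular phase it ran from 19.1 to 85.3 CPM (median 43.3) in NWS and from 25.9 to 192 CPM (median 92.7) in Suffolk. The order of the medians thus turned while the ranges overlapped in both states, and edgeR's quasi-likelihood test gave an interaction of 2.67 ± 0.46 SE (adjusted p = 0.0173).

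Between the follicular and luteal phases of the synchronised cycle the interaction passed for 31 genes (0.209%), and 1985 had an unadjusted p under 0.05. In 27 of the 31 the breed difference was more positive at the follicular phase. ENSOARG00000009508 had an interaction of 2.68 ± 0.45 SE (adjusted p = 0.0123), with 8.38 to 35.6 CPM (median 15.3) in NWS and 0.621 to 6.53 CPM (median 3.58) in Suffolk at the follicular phase and 1.31 to 6.43 CPM (median 2.7) and 2.14 to 6.71 CPM (median 4.72) at the luteal phase. The breeds did not overlap at the follicular phase and did at the luteal phase. ENSOARG00000002381 had -0.63 ± 0.11 SE (adjusted p = 0.0142) and ENSOARG00000018983 had -1.06 ± 0.19 SE (adjusted p = 0.0163). Their log2 fold changes were -0.47 and -0.78 at the follicular phase, of which the first is below the fold threshold, and 0.18 and 0.29 at the luteal phase.

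Of the 31 genes 2 had a name. PNCK had an interaction of 3.53 ± 0.71 SE (adjusted p = 0.018), from a larger difference at the follicular (7.07) than at the luteal phase (3.55). CTSK, which encodes the collagen-degrading protease cathepsin K and was singled out after its values were seen, had a log2 fold change of -0.86 at the follicular and 0.25 at the luteal phase (interaction -1.10, with adjusted p = 0.0496 in edgeR).

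The other breeds are given side by side, since they share ewes with the comparison above. Against the same 11 Suffolk ewes, the 8 Fur ewes gave 1965 DEGs (13.3%), of which 1081 were higher (7.3%) and 884 lower (5.97%) in Fur, and the 10 Belclare ewes 1 (0.00675%), with 954 genes at an unadjusted p under 0.05. NWS against Belclare gave 2412 (16.3%), with 1150 higher (7.76%) and 1262 lower (8.52%) in NWS, and 3430 without Belclare replicate 2, the ewe with the high muscle sum. Over the 1413 genes higher in NWS the median log2 fold change was 0.92 in NWS, 0.77 in Fur and 0.12 in Belclare against Suffolk, and 0.80 in NWS against Belclare. Over the 1361 genes lower in NWS it was -0.83, -0.63, -0.08 and -0.76. FOXC1 had -2.63 in NWS, -0.88 in Fur and -1.61 in Belclare against Suffolk. SCGB2A1 had -2.85, -0.47 and -0.29. ACTG2 had 4.21, 4.09 and 2.37, where the Belclare value includes replicate 2. ENSOARG00000006055 had 3.01, 3.29 and 1.03.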

How the data were processed

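Per the study's methods and the submitters' processing notes, the authors trimmed paired reads of stranded mRNA libraries, mapped them with STAR 2.6.1b on the Oar_v3.1 assembly of sheep, kept unique pairs and counted them per Ensembl gene with featureCounts (Subread 1.6.3). The deposited values are raw counts of 27054 identifiers per ewe. Whether strand was used in counting was not given in the sources used here, so overlapping and antisense genes may share reads. Of 115 libraries 114 were mapped to a breed and state, and 0 columns of other samples were set aside.

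Genes with at least 1 CPM in 10 of the 39 synchronised follicular ewes of 4 breeds (14811) were tested with edgeR 4.0.16 in R 4.3.3 (limma 3.58.1), with TMM normalisation, glmQLFit and glmQLFTest and Benjamini-Hochberg adjustment over all of them. The comparison of NWS with Suffolk was fitted on these breeds alone. Other states and breeds were fitted the same way, and interactions in 1 model over both states. All tests are two-sided, and the total counts were compared with a permutation test of 100000 resamples in scipy 1.17.1. Figures were drawn with matplotlib 3.10.9 under Python 3.11.15. The fits were tested on simulated counts with known changes. Each ewe gave 1 library, and depth supports a limit of detection of 3 counts, which covers counting error only.

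The comparison, gene lists and markers were chosen with earlier results of these data known. Gene symbols came only from the study's supplementary tables, matched by identifier. No genome of the files' build was used here, so neither positions nor sequences are given. The text names the genes of the study's short table of this contrast, the 3 members of smallest p in each list, the 5 DEGs of smallest p in each direction with and without a name, genes below detection in 1 breed, the 3 genes of smallest p in each interaction, and markers. A few genes that this rule or the lists hold are not reported here. Other genes are said to have been chosen after their values were seen, or stand as members of a list. Alternatives covered size factors, the DESeq2 1.42.0 Wald test, filters, the fold threshold, a fit over all breeds, a replicate block and leaving out each ewe. Leaving out ewes of other states and breeds, and the medians per ewe beside ACTG2 and DES, were added after seeing the data.

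Replicate numbers were checked as pairs across the breeds. The deviations of same-numbered ewes from their breed means correlated between -0.366 and 0.171 (median 0.0295) over 10 pairs, so the numbers do not pair the ewes.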

Additional observations from a re-analysis of the deposited data

Results flagged for a closer look

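Among the genes named above and the markers, 109 in number, 24 had a highest NWS ewe set apart from the other NWS ewes by more than Dixon's limit for 10 samples (a gap over 0.466 of the range). Chance gives about 1 such group in 20 for independent groups of normally distributed values. Here the limit was applied to untransformed CPM of genes that share the same 10 ewes, so the 24 cannot be set against that rate. Of the 24, 14 fell on replicate 2, 5 on replicate 9 and 5 on other ewes.

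In NWS replicate 2 the immune and macrophage genes among them were CD27 at 6.462 CPM (next highest NWS ewe 2.76), IRF4 at 19.8 (7.90), IGHG3 at 2340 for ENSOARG00000000857 (576.7) and 6202 for ENSOARG00000009143 (1777), and GPNMB at 58.93 (16.1). With all ewes CD27 and IRF4 were not DEGs, and CD27 became one in 6 fits that each left out 1 Suffolk ewe. At the other end of the fits without 1 ewe, the log2 fold change was only -0.46 for CD27 and -0.08 for IRF4. The highest adjusted p in edgeR's quasi-likelihood test was 0.319 and 0.881. Without NWS replicate 2 both were DEGs (-1.615 and -1.429). The same ewe was highest for FAP at 440.8 CPM (222.5), CFHR3 at 106.4 (48.9), GRN at 295.5 (214.3), SGSH at 74.22 (47.0), CPT1A at 108.4 (60.5), NECTIN2 at 116.1 (96.4), KLF9 at 23.0 (14.4), TRPM1 at 1.482 (0.225) and ENSOARG00000002285 at 65.98 (52.5).

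In NWS replicate 9 they were OXTR at 62.13 CPM (next 5.55), MUC5AC at 52.36 (28.2), ADAMTS7 at 68.27 (39.8), MMP15 at 54.95 (43.4) and ENSOARG00000002601 at 1.808. In other NWS ewes they were CLDN7 at 160.2 CPM and PTGS1 at 50.44 in replicate 4, JAK3 at 40.32 in replicate 1, ENSOARG00000015492 at 24.39 in replicate 5 and ENSOARG00000009508 at 35.58 in replicate 10.

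The breed difference itself differed between states, by an interaction in edgeR's quasi-likelihood test, for 6 of the genes named, of which CTSK (chosen after its values were seen) is given above. Between synchronised and natural cycles it was 2.666 on the log2 scale for ENSOARG00000013745. Between the follicular and luteal phase it was 3.531 for PNCK, 2.676 for ENSOARG00000009508, -0.6344 for ENSOARG00000002381 and -1.056 for ENSOARG00000018983.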

How the results depend on the processing

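The count of 2774 DEGs was 2778 with DESeq2 size factors, 2948 with the DESeq2 Wald test, 3289 without a filter, 2269 with a filter of 10 counts, and 2845 with all 4 breeds in the fit. It ran from 2546 to 2978 when 1 ewe was left out. A test against the 1.5-fold limit itself (glmTreat) called 635 genes (471 higher and 164 lower), and no fold threshold gave 6182 (3198 and 2984). With a replicate block, for numbers that do not pair the ewes, 2572 genes were called, and 6 of the 109 named genes lost and 6 gained their call. With plain library totals 95 genes lay below in every NWS ewe. With 10 counts as the limit of detection 3 genes in place of 1 were below it in Suffolk. The DESeq2 Wald test called 830 genes at the natural follicular phase, 140 in the cycle interaction and 171 in the phase interaction, and the luteal phase gave 1322 without a fold threshold. Leaving out 1 ewe gave 3 to 899 genes at the natural follicular phase and 1 to 5 for Belclare against Suffolk. Of the 109 named genes, 46 lost their call under glmTreat, 22 changed it in at least 1 of the 21 fits without 1 ewe, and 87 in none. No fold change of these 109 genes turned its direction where the gene was a DEG in the main fit or under the alternative. Turns of genes that were DEGs in neither were not counted. The excess of higher over lower genes (1413 against 1361) did turn, to 1339 against 1506 with all 4 breeds, 1425 against 1523 with the Wald test, 1118 against 1151 with the filter of 10 counts, and without NWS replicate 2 (1476 against 1502), 4 (1464 against 1485) or 9 (1359 against 1379). The median over all genes was 0.00042 without Suffolk replicate 11. Medians of lists and states were not recomputed under the alternatives, and the causes of these changes were not tested. Depth limits low genes such as PNCK, TRPM1 and FOXC1 in the breed where they had few counts.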
